A study of Caenorhabditis elegans with 4 samples.

Results

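The genes described here are 10 components of the 2 TGF-beta signaling pathways of Caenorhabditis elegans, taken by name: daf-7, dbl-1, daf-1, daf-4, daf-8, daf-14, sma-2, sma-3, sma-4 and daf-3. All 10 were on the array, out of 20040 genes in all. No cutoff on their values was used to choose them, but earlier results of these data were known at the time. RNA came from 4 samples of early embryos of the wild-type strain N2, bleached out of gravid adults grown in liquid culture, and each sample was run on its own 1-color NimbleGen array. All samples belong to 1 group, with no mutant, treatment or time series, so levels are described across genes and across samples. Each sample is a pool of embryos of mixed early stages, so RNA supplied by the mother and RNA made by the embryo cannot be told apart, nor can fewer cells with a transcript and less RNA per cell.

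In TGF-beta signaling, a secreted ligand brings together type I and type II receptor kinases, and the type I receptor then phosphorylates receptor-regulated Smad proteins (R-Smads), which join a common Smad (Co-Smad) and act on transcription in the nucleus. C. elegans uses one such pathway, with the ligand DAF-7, to choose between reproductive growth and arrest as a dauer larva. In this pathway the Co-Smad DAF-3 acts when the ligand is absent and is opposed by the R-Smads. The other pathway, with the BMP-like ligand DBL-1, sets body size and patterns the male tail, and the type II receptor DAF-4 serves both pathways. In larvae, daf-7 is known for its expression in the ASI sensory neurons and dbl-1 for its expression in neurons.

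Values are given on the log2 scale of the deposited intensities, in which 1 unit is a doubling of intensity, with transcripts of a gene averaged. Intensities of different genes also depend on their probes, so the order of genes below is an order of array signal and not of RNA copies. Each of the 16 transcripts of these genes was read by 3 probes. Pearson's correlation across genes was 0.985 to 0.992 between replicates 1, 2 and 3 and 0.968 to 0.973 for pairs that include replicate 4. Genes are not independent replicates. Because the values carry no detection call, the genes for serpentine receptors, chemoreceptors that mature neurons use, served as a low reference. The level that 2.5% of these 1344 genes exceed was 8.47, 8.59, 8.70 and 8.70 in replicates 1 to 4. This is called the serpentine receptor level here, and a gene was counted as above it only when it exceeded it in every sample.

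The labelled tissue was compared with marker genes taken by name. All 11 genes of early embryos and the maternal germ line were in the highest of 5 equal bins of array genes ranked on their means, with a median of 14.78. Of the markers of other tissues, 0 of 6 vitellogenin genes of the adult intestine, 2 of 7 sperm genes and 1 of 4 body muscle genes were above the serpentine receptor level. Samples differed in these markers. The 4 body muscle genes (myo-3, unc-54, unc-15 and unc-27) were each lowest in replicate 3, with a median deviation of -1.15 from their own means, and each above their means in replicates 1 and 2, by a median of 0.76 and 0.39. Their summed intensity was 3913, 3033, 1136 and 2346 in replicates 1 to 4. In replicate 4, the median deviation was 0.31 for vitellogenin and 0.32 for sperm genes, with 4 of 6 and 5 of 7 above their own means. For sperm genes, replicate 3 had a median deviation of 0.08, with 6 of 7 above their own means. The summed intensity of sperm genes was 2927 in replicate 3 and 2892 in replicate 4. Most genes of both lists were not above the serpentine receptor level, so these deviations are of low signals.

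Receptors and most Smads of both pathways had clear signal in early embryos, whereas both ligands and the R-Smad gene sma-2 did not rise above the serpentine receptor level. Of the 10 genes, 7 exceeded it in all 4 samples (daf-1, daf-4, daf-8, daf-14, sma-3, sma-4 and daf-3), against 42.0% of all genes of the array. Against the level that 1% of the serpentine receptor genes exceed, daf-8 was lost and 6 genes remained above, with 38.4% of all genes. With the level that 10% of them exceed, daf-7 was added to make 8, with 51.5% of all genes. The median over the 10 genes was 10.65 and that over all genes was 7.82. Of the 5 bins, the highest, with 20.0% of genes by construction, held 2 of the 10 genes (daf-3 and daf-1). The fourth bin held 4 (daf-14, daf-4, sma-3 and sma-4), the third held 3 (daf-8, dbl-1 and daf-7) and the lowest held sma-2.

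**Figure D1:**
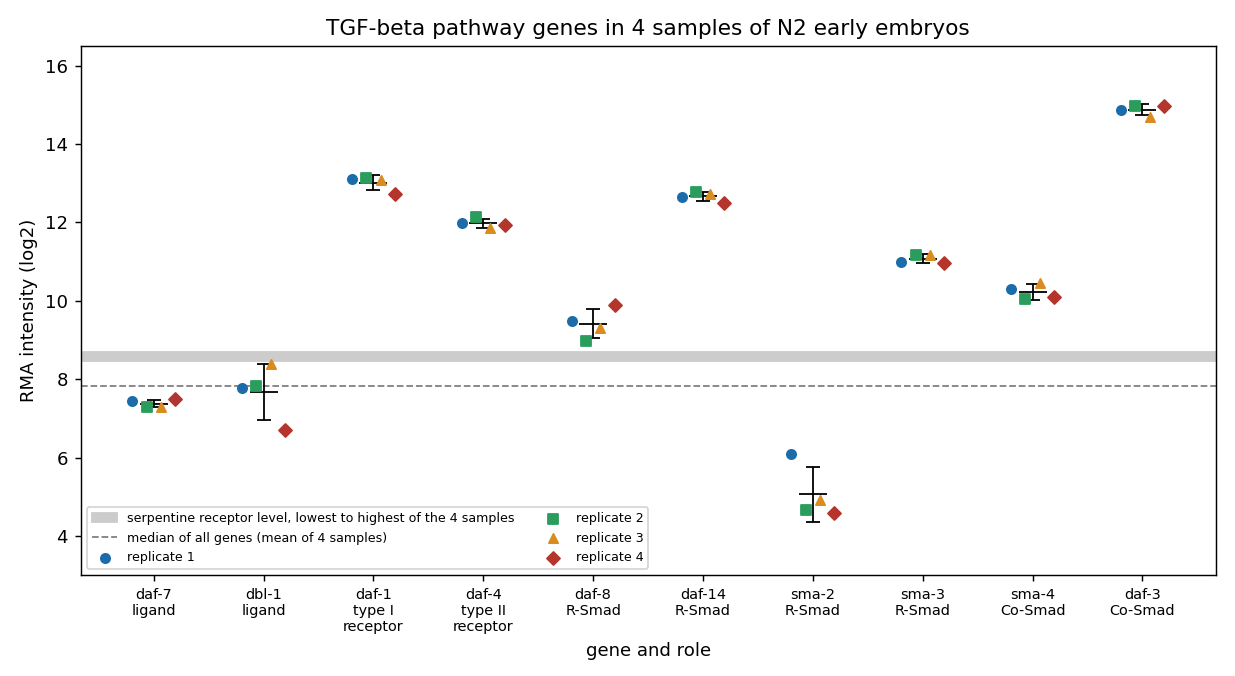
RMA intensity (log2, vertical axis) of the 10 TGF-beta pathway genes in the 4 samples, with horizontal bars for the mean and error bars for the SD over samples. The grey band spans the serpentine receptor levels of the samples (8.47 to 8.70) and the dashed line is the median of all genes (7.82). All points of daf-7, dbl-1 and sma-2 lie below the band.

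Both ligand genes had low signal. For daf-7, which encodes the ligand of the dauer pathway, the log2 values were 7.43, 7.30, 7.29 and 7.49 in replicates 1 to 4 (mean 7.38 ± 0.10, SD, n = 4), which corresponds to intensities between 157 and 180. All 4 samples lay close together and below the serpentine receptor level, from which they differed by -1.41 to -1.04. The gene ranked at the 46.7th percentile of the array.

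For dbl-1, which encodes the ligand of the body size pathway, the values were 7.78, 7.83, 8.38 and 6.70 (mean 7.67 ± 0.70), with a geometric mean intensity of 204. Replicate 3 was the highest and came within -0.32 of the serpentine receptor level, whereas replicate 4 was the lowest and lay at -2.01 from it. The SD of dbl-1 was above the median SD of 0.45 of the genes in its bin, whereas that of daf-7 was below it. The ligand genes could not be ordered against each other, since dbl-1 exceeded daf-7 in replicates 1, 2 and 3, by 0.35, 0.52 and 1.09, and differed from it by -0.80 in replicate 4.

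Because both ligands are known from neurons, neuronal genes are set beside them. Of 14 neuronal genes listed by name, 13 were matched to the array and 3 of these were above the serpentine receptor level. Those 3 were snb-1, unc-64 and ric-4, which encode proteins of vesicle fusion. The median over the 13 genes was 7.36, 7.12 and 7.14 in replicates 1 to 3 and 6.26 in replicate 4, the replicate in which dbl-1 was lowest. In that replicate, however, 7 of the 13 genes were above their own means and the median deviation was 0.09. Their summed intensity ranged from 21783 to 27375, and was 26753 in replicate 4, but 73.1% to 81.1% of it came from snb-1 alone. Of the markers of the ASI neurons, str-3 had a mean of 4.51 ± 0.25 and gpa-4 of 6.20 ± 0.33, and both were below the serpentine receptor level in all samples. The part of neuronal RNA in the values of dbl-1 was not tested.

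Both receptor genes among the 10 were above the serpentine receptor level in each sample. The type I receptor gene daf-1 of the dauer pathway had values of 13.11, 13.13, 13.08 and 12.72 (mean 13.01 ± 0.20), that is intensities between 6731 and 8980. With its 2 transcripts averaged, replicates 1 to 3 were within a narrow range and replicate 4 was lower than each of them. The shared type II receptor gene daf-4 had values of 11.98, 12.14, 11.85 and 11.93 (mean 11.97 ± 0.12). The ranges of these receptor genes did not overlap, and the signal of daf-1 was above that of daf-4 in 4 of 4 samples, by 0.79 to 1.24. Over the serpentine receptor level, the margin was 4.01 to 4.64 for daf-1 and 3.15 to 3.55 for daf-4, and no difference from the ligand genes is given, since these were below that level.

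R-Smad genes were spread over most of the range of the array. In the dauer pathway, daf-14, which encodes an R-Smad, had values of 12.65, 12.79, 12.71 and 12.50 (mean 12.66 ± 0.12). The other R-Smad gene of this pathway, daf-8, had values of 9.48, 8.98, 9.31 and 9.90 (mean 9.42 ± 0.38). The samples of daf-8 were more widely spread, with replicate 2 lowest and replicate 4 highest, and its smallest margin over the serpentine receptor level was 0.40. The signal of daf-14 was above that of daf-8 in 4 of 4 samples, by 2.60 to 3.80.

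In the body size pathway, the R-Smad gene sma-3 had values of 10.98, 11.18, 11.16 and 10.97 (mean 11.07 ± 0.11), with all samples close together. The gene sma-2 encodes the other R-Smad of that pathway and had values of 6.10, 4.66, 4.91 and 4.58 (mean 5.06 ± 0.71). Replicate 1 was the highest of its samples and the other samples were within a narrower range. Even replicate 1 lay at -2.37 from the serpentine receptor level, and the others lay at -4.12 to -3.79. The intensities of sma-2 were between 23.9 and 68.7, and its percentile on the array was 15.3 for the mean and 6.41 to 33.1 in single samples. The margin of sma-3 over the serpentine receptor level was 2.27 to 2.59. The array carried 1 transcript of sma-2, and the position of its probes in the gene was not analysed here, so a low signal may not stand for a low level of sma-2 RNA.

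Among the Co-Smad genes, daf-3 was the highest of all 10 genes. Its values were 14.87, 14.97, 14.68 and 14.98 (mean 14.87 ± 0.14), with intensities between 26207 and 32290, at the 98.6th percentile of the array. The Co-Smad gene of the body size pathway, sma-4, had values of 10.30, 10.04, 10.46 and 10.10 (mean 10.22 ± 0.20). The ranges of both genes were far apart, with the signal of daf-3 above that of sma-4 by 4.22 to 4.94. Within the dauer pathway, daf-3 was also above the R-Smad gene daf-14 in 4 of 4 samples, by 1.96 to 2.48. Within the body size pathway, sma-3 was above sma-4 by 0.67 to 1.14.

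From highest to lowest mean signal, the order of the genes was daf-3, daf-1, daf-14, daf-4, sma-3, sma-4, daf-8, dbl-1, daf-7 and sma-2. This order was found in 3 of 4 samples on their own, and in replicate 4 dbl-1 and daf-7 changed places. Of the 9 pairs of neighbours in this order, 7 did not overlap in their ranges over the samples, and the exceptions were daf-1 with daf-14 and dbl-1 with daf-7. The signal of daf-1 was nonetheless above that of daf-14 in 4 of 4 samples, by 0.35 ± 0.10. The neighbours sma-4 and daf-8 did not overlap, although they differed by only 0.20 in replicate 4 and by up to 1.15 in the others. The pairs of neighbours and their direction were taken from the means of the same samples, so testing them there gives no independent check. With 4 samples, an exact two-sided sign-flip permutation test of a paired difference cannot give a p below 0.125. It gave this value for 8 of the 9 pairs (exact test, adjusted p = 0.141 by Benjamini-Hochberg over 9 pairs) and 0.5 for dbl-1 with daf-7 (adjusted p = 0.5), so no pair could pass 0.05. Of all 45 pairs of the 10 genes, 43 did not overlap. The share over other pairs of array genes was not computed. Across the array, the median was 4.82 in the lowest bin and 13.79 in the highest, with a median SD of 0.35. The counts of pairs without overlap are therefore not read as particular to these genes. The order among dbl-1, daf-7 and sma-2 is one of signals below the serpentine receptor level and says nothing of their RNA levels.

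The SD over samples was below the median SD of genes in the same bin for 7 of the 10 genes and above it for dbl-1, daf-1 and sma-2, where a median splits all genes evenly by construction. No sample was high or low for all of the genes. In replicate 4, 7 of the 10 genes were below their own mean, with a median deviation of -0.12, against -0.02 for all genes. In the same sample, daf-8 lay 0.48 above its mean, daf-7 0.11 above and daf-3 0.11 above. The largest deviations were those of sma-2 in replicate 1, at 1.04, and of dbl-1, at -0.98 in replicate 4 and 0.71 in replicate 3. Replicate 4 was also the sample with the lowest correlations with the others. Its median deviations were 0.31 for vitellogenin and 0.32 for sperm genes, but only 4 of 6 and 5 of 7 of these were above their own means. In replicate 3, 6 of 7 sperm genes were. The part of vitellogenin or sperm RNA in the deviations of the 10 genes was not tested.

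**Figure D2:**
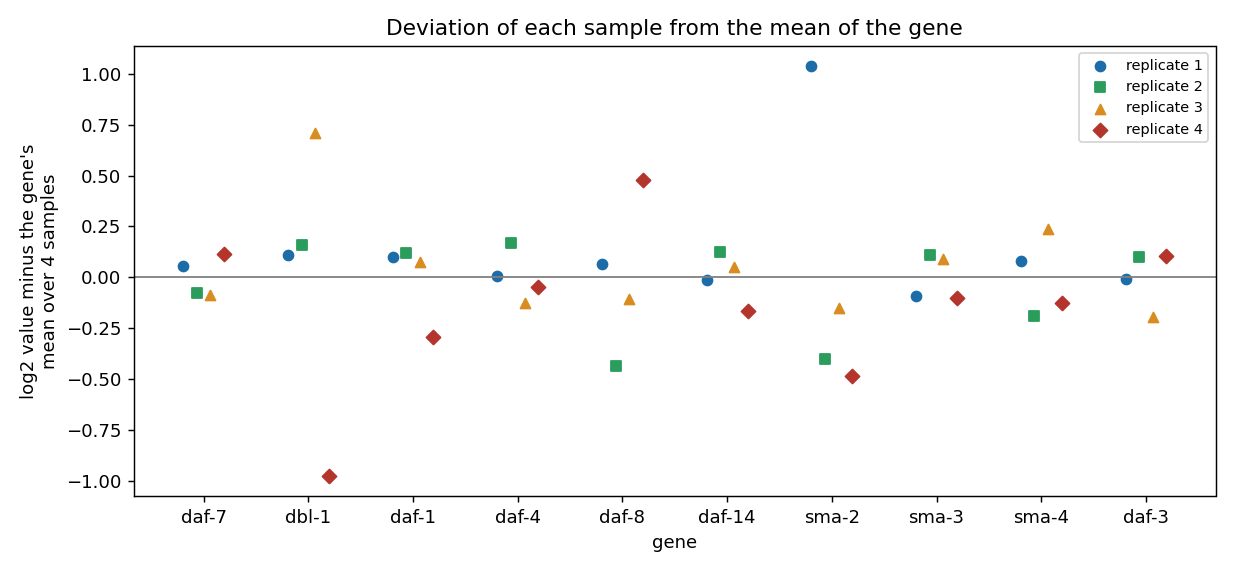
Difference of each sample from the mean of the same gene over the 4 samples (log2, vertical axis) for the 10 genes. Most points lie within 0.25 of 0, and the points farthest from it are sma-2 in replicate 1 (1.04) and dbl-1 in replicate 4 (-0.98).

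For 4 of the genes, the array carried more than 1 transcript. The 3 transcripts of daf-3 had means of 14.96 ± 0.27 (F25E2.5a), 14.86 ± 0.18 (F25E2.5b) and 14.80 ± 0.06 (F25E2.5c), and their order was reversed in replicate 3. Those of daf-4 had means of 12.04 ± 0.21 (C05D2.1a), 11.99 ± 0.15 (C05D2.1c) and 11.89 ± 0.13 (C05D2.1d), with no order that held in all samples. For daf-1, F29C4.1a, with a mean of 13.02 ± 0.34, was above F29C4.1b by 0.21 and 0.39 in replicates 1 and 2 and differed from it by -0.22 and -0.31 in replicates 3 and 4. Both were lowest in replicate 4, at 12.56 for F29C4.1a and 12.87 for F29C4.1b. For F29C4.1b this was close to its next lowest sample (12.94, replicate 2), and that of F29C4.1a was 12.97 (replicate 3). Only sma-4 had a transcript that was higher in every sample. Its values were 10.54, 10.43, 10.92 and 10.31 for R12B2.1b, which exceeded R12B2.1a by 0.47, 0.79, 0.91 and 0.43 (mean difference 0.65 ± 0.24). Transcripts of a gene share most of their sequence, and probes may detect more than one of them.

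**Figure D3:**
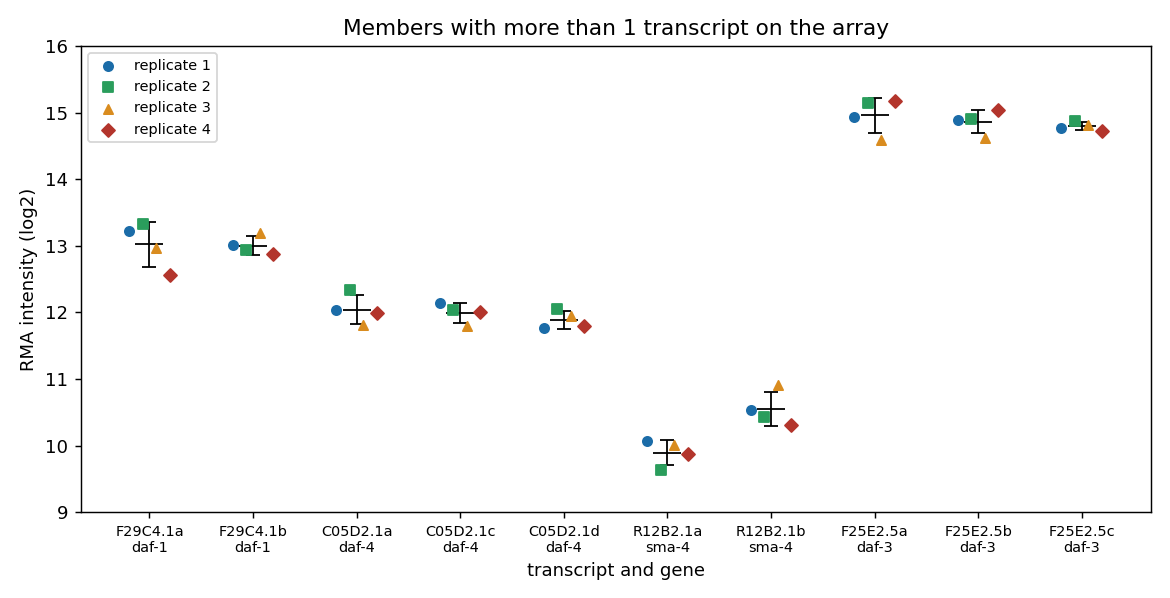
RMA intensity (log2, vertical axis, which starts at 9) of the 10 transcripts of daf-1, daf-4, sma-4 and daf-3 in the 4 samples, with the mean and SD over samples. The transcripts of a gene overlap in range except those of sma-4, where all samples of R12B2.1b (10.31 to 10.92) lie above those of R12B2.1a (9.64 to 10.07).

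Other genes of these pathways were taken from lists by name, of which 32 of 33 genes were matched to the array. Of these, 19 were above the serpentine receptor level, against 42.0% of all genes, and their median was 9.61. The genes above it were 2 of 3 other ligands, the 1 other receptor, 7 of 10 extracellular and membrane modulators, 4 of 4 nuclear partners, both receptor-associated proteins, 2 of 8 target and downstream genes and 1 of 4 dauer hormone genes. The counts of these groups were not tested against each other.

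Among the other TGF-beta family ligands, unc-129, which guides motor axons, had values of 12.04, 12.21, 11.65 and 12.16 (mean 12.01 ± 0.25), and tig-2 had a mean of 10.41 ± 0.08. Both exceeded the serpentine receptor level in all 4 samples, unlike daf-7 and dbl-1, whereas tig-3 had a mean of 7.37 ± 0.46 and was below it. The type I receptor gene of the body size pathway, sma-6, had values of 9.80, 9.63, 9.59 and 9.30 (mean 9.58 ± 0.21), above the level in all 4 samples. Its range lay below those of daf-1 and daf-4.

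Of the modulators, the highest were sup-17, which encodes an ADAM protease, at 14.50 ± 0.17, and the tetraspanin gene tsp-21 at 14.31 ± 0.22. The lowest were drag-1, which encodes a repulsive guidance molecule that acts as a co-receptor, at 6.77 ± 0.39, and smoc-1, which encodes a secreted calcium-binding protein, at 8.26 ± 0.73. Of these, drag-1 was below the serpentine receptor level in all samples and smoc-1 in replicate 4 and replicate 3. The 10 modulators thus ranged in mean from 6.77 to 14.50, with a median of 11.29.

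Nuclear partners of the Smads had signal in every sample. The gene daf-5, which encodes the Sno/Ski protein that works with DAF-3, had a mean of 12.14 ± 0.33, and sma-9, which encodes the Schnurri homolog of the body size pathway, had a mean of 12.19 ± 0.46. The Smad-related gene tag-68 had a mean of 10.44 ± 0.51 and mab-31 of 9.28 ± 0.38. In replicate 3, daf-5, sma-9 and mab-31 were each at their lowest, at 11.69, 11.52 and 8.75, whereas tag-68 was at its highest, at 10.70. Low values in replicate 3 were not particular to nuclear partners. It was the lowest sample for 3 of 3 other ligands and 3 of 4 dauer hormone genes. The same held for 4 of 10 modulators, 1 of 2 receptor-associated genes and 2 of 8 downstream genes, but not for sma-6. The median deviation in replicate 3 was -0.49 for nuclear partners and -0.73 for dauer hormone genes. Replicate 3 is also the sample in which all 4 body muscle genes were lowest (median deviation -1.15). The part of muscle RNA in these values was not tested. Of the receptor-associated proteins, bra-2 had a mean of 13.97 ± 0.11 and bra-1 of 12.65 ± 0.13.

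Of the 8 genes that act further downstream, 5 were below the serpentine receptor level in all samples. The highest were kin-29, which encodes a salt-inducible kinase, at 10.40 ± 0.30, and mab-21, which acts in male tail patterning, at 9.29 ± 0.29. The lowest were the cuticle collagen gene rol-6, at 5.67 ± 0.41, and the fatty acid desaturase gene fat-7, at 6.46 ± 0.24. Among the dauer hormone genes, din-1, which encodes a corepressor of the nuclear hormone receptor DAF-12, was high at 13.37 ± 0.44. The others had means of 8.51 ± 0.56 (daf-12), 6.60 ± 0.70 (daf-36, which encodes an oxygenase) and 4.62 ± 0.60 (daf-9, which encodes a cytochrome P450).

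**Figure D4:**
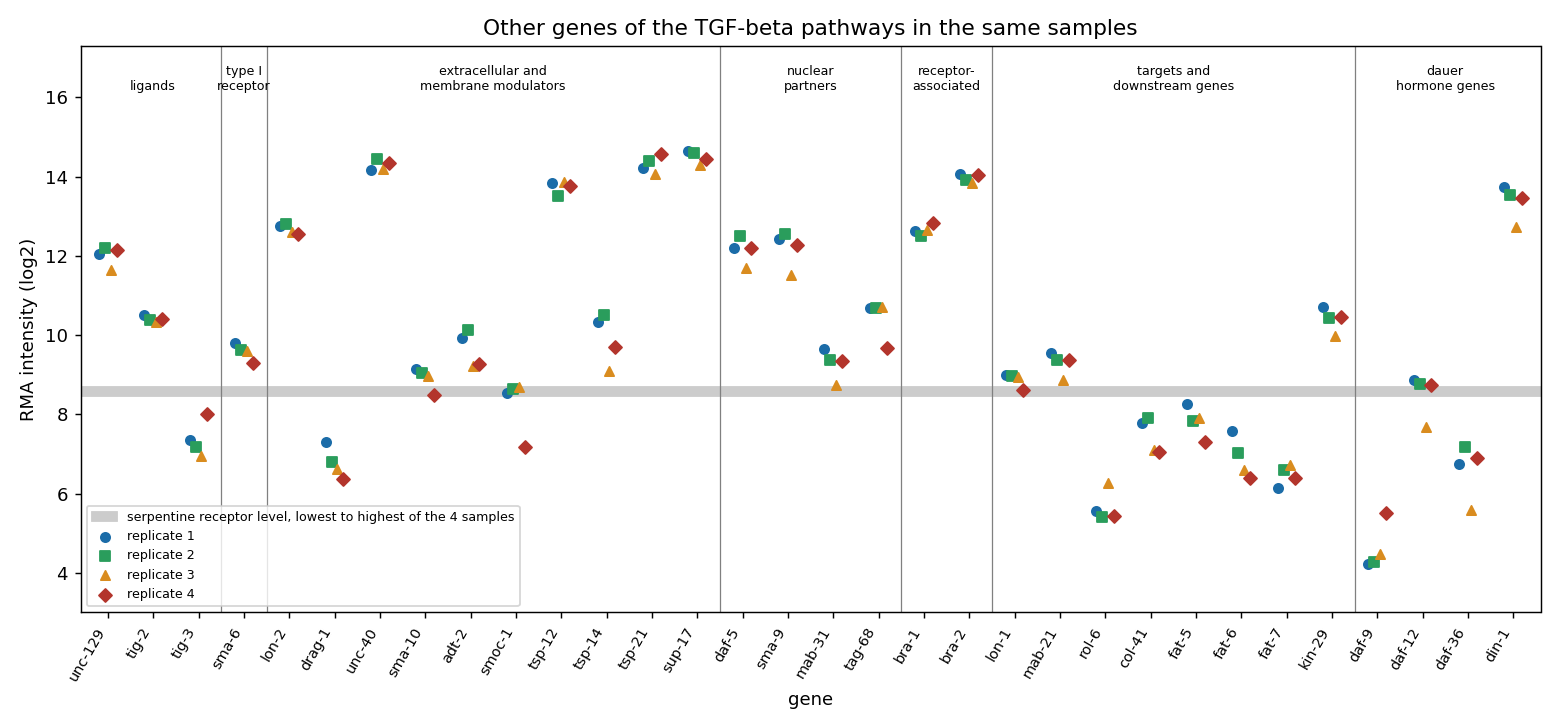
RMA intensity (log2, vertical axis) of 32 other genes of the TGF-beta pathways in the 4 samples, grouped by role, with the serpentine receptor level as a grey band (8.47 to 8.70). All genes of the groups of nuclear partners and receptor-associated proteins lie above the band, and 5 of the 8 target and downstream genes lie below it in all samples.

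The array signals most like those of the highest and the lowest gene were found by the root mean square difference over the 4 samples. For daf-3, they were those of zip-8, which encodes a bZIP protein (difference 0.029), and wdr-5.1, which encodes a WD40 protein of histone methyltransferase complexes (0.029), and 252 genes were within 0.25 of it. For sma-2, they were C24H10.4 (0.080) and oac-24 (0.100), and 16 genes were within 0.25.

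Of the 10 genes, 5 lie on chromosome III (daf-7, daf-4, sma-2, sma-3 and sma-4), which holds 13.3% of the array genes with a known chromosome, and daf-3 is the one on the X chromosome. Of the 20 nearest measured protein-coding neighbours, 8 were above the serpentine receptor level, a share close to the 42.0% of all genes. The gene with the lowest signal, sma-2, lies between ugtp-1 (13.06 ± 0.24) and tomm-70 (13.98 ± 0.11), whereas daf-3 lies between ifd-2 (5.98 ± 0.54) and wdr-54 (5.45 ± 0.33). The germline-specific and the soma-specific class that the study defined, and its list of genes bound by MES-4 and marked by H3K36me3 but poor in RNA polymerase II, held 0 of the 10 genes. These lists hold 0.838%, 1.61% and 1.03% of the genes of the array, so a count of 0 among 10 says little, and the other classes were not analysed here.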

How the data were processed

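RNA from 4 samples of N2 early embryos was measured on 1-color NimbleGen arrays. The authors quantile normalized the arrays, combined the probes of each transcript by Robust Multichip Average (RMA) and deposited linear intensities, beside the number of probes per transcript. Of the software version, the array annotation and the genome build, the sources used here give nothing. The labels give a DNase treatment for all samples and the methods for only some, so samples were not divided by it, and the spread between samples may be partly technical.

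Intensities were converted to log2 without a pseudocount or a filter, and 23180 transcripts were averaged to 20040 genes, of which a RefSeq table (WBcel235) gave symbol, chromosome and neighbours for 19380. All 10 genes, the 2 closest signals of the highest and the lowest gene, and listed pathway genes (all of lists up to 4 genes, otherwise the 2 highest and 2 lowest) were named by rule. A few others were named after their values were seen. Genes and lists were chosen with earlier results of these data known. Neighbours in the order, which came from the same samples, were compared by an exact sign-flip test, and other results are descriptions. Alternatives were leaving out each sample, other scalings, the highest transcript, the series table (identical in all 92720 values), linear means, medians and other thresholds. Python 3.11.15 with numpy 2.4.6 and pandas 2.3.3 was used, and the summaries were tested on simulated data. Precision is limited by the number of arrays.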

Additional observations from a re-analysis of the deposited data

Results flagged for a closer look

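In a group of 4 samples, a sample was marked when its gap to the nearest other sample took up most of the range of the group (Dixon's test). Chance marks about 1 in 20 groups, and here 6 of 52 were marked (the 10 genes, 10 transcripts and 32 other pathway genes), 4 of them for replicate 4, the sample with the lowest correlations with the others. The share marked among all genes of the array was not computed, and transcripts are not independent of their genes. The count is therefore not read as an excess in these pathways.

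Of the 10 genes, daf-1 was marked, since replicate 4 had a log2 value of 12.72 and the other samples were between 13.08 and 13.13. These are averages of its transcripts, and 0 of the 10 transcripts were marked. In replicates 1 to 3, F29C4.1a ranged from 12.97 to 13.33 and F29C4.1b from 12.94 to 13.20. Among the other pathway genes, smoc-1 had a value of 7.18 in replicate 4 and 8.55 to 8.68 in the others, tag-68 had 9.68 against 10.68 to 10.70, and lon-1, which encodes a secreted protein that limits body length, had 8.62 against a mean of 8.97. In replicate 3, rol-6 was high, with 6.27 against 5.42 to 5.55, and daf-12 was low, with 7.68 against 8.75 to 8.86. No cause was tested.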

How the results depend on the processing

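The same 7 genes were above the serpentine receptor level with the highest transcript of each gene. The count was 8 or 6 genes with the less strict or stricter level. Leaving out 1 of the samples could only add genes, and added none. Median centring and another quantile normalization keep the order of genes within an array, and the series table is identical. These settings gave the same 7 genes but could not have changed them. The median of the 10 genes was 2.83 above that of all genes, 2.79 to 2.86 when a sample was left out, and 2.92 with the highest transcript. The highest bin held 2 genes with 5 bins, 3 with 4 bins and 1 with 10 bins, where it is narrower. Neighbours without overlap numbered 7, and 7 to 9 when a sample was left out, with all 9 apart without replicate 4. Leaving out a sample cannot widen a range, so it could not lower this count. The count was 8 with median centring and with the highest transcript, and 7 with quantile normalization. The order of the means was the same under all 8 settings applied to it, of which median centring and the series table could not change it. Of 90 single-gene levels, 87 moved by less than their SD, and the others were daf-4, sma-4 and daf-3 with the highest transcript. For most of the 90 this was fixed in advance, so the count says little about stability. Leaving out 1 of 4 samples cannot move a mean by its SD, and median centring and the series table leave it unchanged. The highest transcript cannot change genes with 1 transcript. No paired analysis was possible because there is no second group whose samples could be paired with these by replicate number, and the comparison of neighbours pairs genes within an array. Probe affinity and the number of arrays limit what these values can show.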
